A study of Danio rerio with 45 samples.

Results

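The earliest transcripts that zebrafish embryos make from their own genome were followed by comparing wild-type (WT) embryos at 3.3 hours post fertilisation (hpf) with WT embryos at 2.5 hpf. The comparison rests on 6 of the 45 libraries of the series, 3 at each stage, chosen by the treatment and stage that the columns of the expression table name. The series also holds WT embryos at 4.5, 5.3 and 10 hpf and, at all 5 stages, embryos that received a rad21 morpholino (Rad21 MO) or a ctcf morpholino (CTCF MO). All embryos were of the AB/PS strain, each library was made from 100 whole embryos pooled after matching their stage by eye, and stranded libraries were made from total RNA depleted of ribosomal RNA. A morpholino is a synthetic oligomer that pairs with a transcript and keeps it from being translated or spliced; Rad21 is a subunit of the cohesin ring, and Ctcf is a DNA-binding protein that helps to place cohesin on chromosomes. The labels call the reference embryos wild type and do not say whether they were injected, nor whether pools came from separate clutches, so p-values reflect only how these pools vary, which may be technical variation.

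After fertilisation the zebrafish embryo divides quickly and lives on RNA and protein laid down in the egg, while its genome is almost silent. Transcription starts at the midblastula transition, the maternal factors Pou5f3, Nanog and Sox19b help to open the genome, and among the earliest products are the miR-430 microRNAs, which mark many maternal RNAs for removal. The question put by the design was which transcripts change around this activation, and 3.3 and 2.5 hpf are the pair of WT stages that stand closest to its start. Whether it had begun by 2.5 hpf was not tested. The locus dre-mir-430a-11 already stood at 1207 to 1332 FPKM there.

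Levels are in FPKM, the number of fragments scaled to transcript length and to the size of the library, as deposited by the authors, so values of different genes can be set side by side per length. Changes and their standard errors (SE) are differences of log2(FPKM + 1), which understates the change of low genes, and adjusted p-values are those of limma with Benjamini-Hochberg adjustment over all genes tested. Where 3 values are given for a stage they are libraries 0, 1 and 2 of that stage, as the table numbers them. Between 13279 and 13480 genes reached 1 FPKM in the libraries of 3.3 hpf, and between 12788 and 13058 in those of 2.5 hpf. Read totals cannot be had from FPKM; the steps in which low values come put the depths of the 6 libraries within 1.62-fold of each other. Across genes, libraries of the same stage correlated at r = 0.969 to 0.976, and libraries of the different stages at 0.952 to 0.968, as a description over genes that share each library. Of 7 tested markers of somatic cells of the ovary 0 were called, beside 2.06% higher and 0.402% lower of all genes tested. So few genes would seldom give a call at these shares, and the count says little. The summed level of all 23 marker loci was 154 to 180 FPKM at 3.3 hpf and 178 to 201 FPKM at 2.5 hpf.

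Of 31966 genes in the table, 17410 reached 1 FPKM in at least 3 of the 15 WT libraries and were tested. At adjusted p under 0.05, 358 genes were higher at 3.3 hpf, 2.06% of those tested, and 70 were lower, 0.402%. The higher genes made up 83.6% of the calls, and 71.4% after quantile normalization of the libraries. Among the 358, 318 rose at least 2-fold, 157 at least 4-fold and 72 at least 8-fold on the log2(FPKM + 1) scale, with a median log2 change of 1.88. Only 9 of the 70 fell by 2-fold or more, and their median was -0.68, while the median of all genes tested was 0.02. In all 358 the 3 libraries of 3.3 hpf lay above the 3 of 2.5 hpf, an order that 11.0% of all tested genes showed, and in all 70 they lay below, as in 8.14% of all tested genes. Among the risers library 0 was the lowest of 3.3 hpf for 62.3%, beside 34.9% of all genes, and library 0 was the lowest of 2.5 hpf for 55.8%, beside 37.8%; its part in the rises was not tested, and 345 and 306 genes were called higher without these libraries. Because whole embryos were measured, more cells that transcribe a gene and more RNA of it per cell cannot be told apart.

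**Figure D1:**
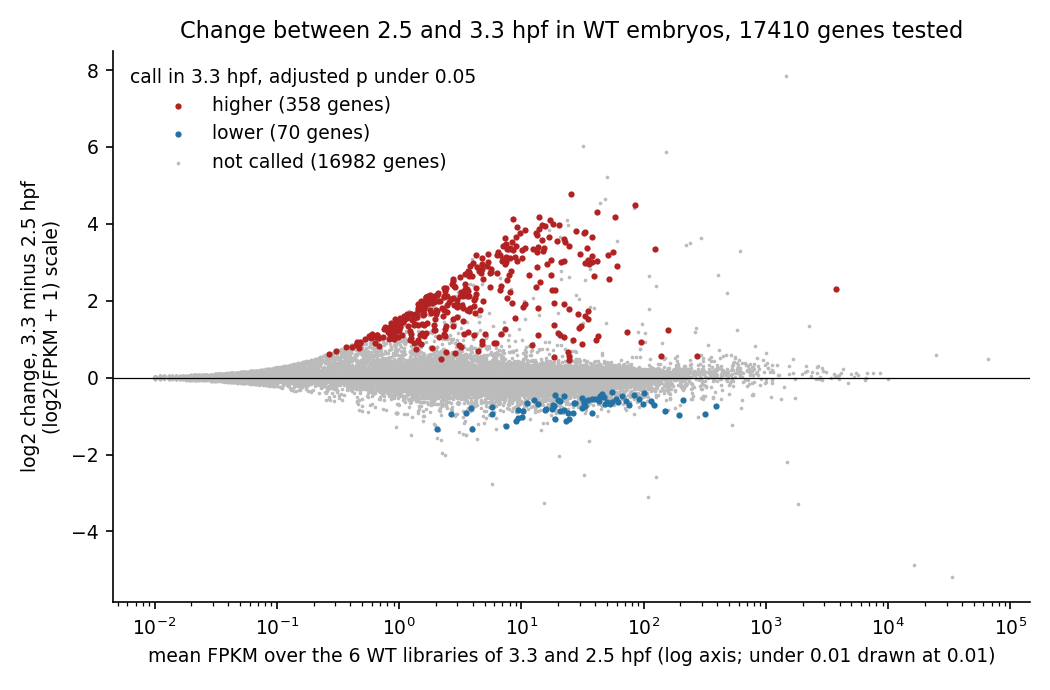
Each point is a gene tested; the horizontal axis gives its mean FPKM over the 6 WT libraries on a log axis and the vertical axis its log2 change, 3.3 minus 2.5 hpf, on the log2(FPKM + 1) scale. The 358 genes called higher fan out up to a change of 4.77, while the 70 called lower lie in a narrow band that reaches -1.34.

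Most of the rising genes were close to absent at 2.5 hpf. The mean at 2.5 hpf was under 1 FPKM for 235 of the 358, or 65.6%, against 25.1% of all genes tested. Of the 358, 28 were listed at 0 in all 3 libraries, beside 1144 of all 17410 genes tested. The call used these same values, so a low level at 2.5 hpf was favoured by the choice of risers. The median level of the risers was 5.72 FPKM at 3.3 hpf and 0.543 FPKM at 2.5 hpf. Their FPKM summed to 12010, 12680 and 12680 at 3.3 hpf, and to 2415, 2767 and 2529 at 2.5 hpf. This was 1.47% to 1.70% and 0.296% to 0.388% of all FPKM in those libraries. The single locus dre-mir-430a-11 gave 6688, 5846 and 6325 FPKM of the sums at 3.3 hpf and 1207, 1332 and 1247 FPKM at 2.5 hpf. The rising genes were short: their loci spanned a median of 5646 bases, against 17065 bases over all genes tested, and those of the falling genes 7439 bases. Clone or merged names were borne by 58.9% of the rising genes, 12.9% of the falling genes and 21.7% of all tested. A merged name joins several names at a locus and can hold an accepted symbol, such as brd2a.

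The largest rise of a gene with a symbol and at least 5 FPKM was that of nnr (Zv9 chromosome 15, 1585056 to 1586064). It stood at 50.0, 57.8 and 42.6 FPKM at 3.3 hpf, against 0, 1.42 and 1.64 FPKM at 2.5 hpf (log2 change 4.77, SE 0.39, adjusted p = 3.78e-06). Library 0 of 2.5 hpf is listed at 0, and every library of 3.3 hpf was far above the others of 2.5 hpf. A mitochondrial carrier gene that the table calls slc25a22 and RefSeq slc25a55a (chromosome 6, 49036235 to 49047646) had 26.7, 43.9 and 35.4 FPKM at 3.3 hpf and 0.790, 1.48 and 1.499 FPKM at 2.5 hpf (log2 change 3.999, SE 0.18, adjusted p = 2.43e-08). The gene fam212aa, inka1a in RefSeq, whose family inhibits a p21-activated kinase, had 30.7, 43.9 and 43.42 FPKM against 1.404, 1.74 and 1.44 FPKM (log2 change 3.98, adjusted p = 3.44e-09). In both, the lowest library of 3.3 hpf was library 0, and it still lay over 10 FPKM above any library of 2.5 hpf.

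Genes of signalling and cell organisation stood among the largest rises as well. The kinase-anchoring scaffold gene akap12b averaged 17.8 ± 4.56 FPKM at 3.3 hpf and 0.446 ± 0.111 FPKM at 2.5 hpf (SD, n = 3 each; log2 change 3.67). The gene asb11, for a substrate adaptor of a ubiquitin ligase, averaged 16.4 ± 5.72 FPKM and 0.458 ± 0.150 FPKM (log2 change 3.52), and lfng, a glycosyltransferase that modifies Notch receptors, 28.6 ± 5.35 FPKM and 1.90 ± 0.748 FPKM (log2 change 3.37). The locus DLEU7 had 12.4, 14.9 and 15.8 FPKM at 3.3 hpf and 0, 0.628 and 0.130 FPKM at 2.5 hpf (log2 change 3.64, adjusted p = 2.61e-08). None of these genes had a library of 2.5 hpf that reached its lowest library of 3.3 hpf.

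Many transcription factors of the first wave were among the risers. Of 73 tested members of a list of transcription factors known from the first hours of zygotic transcription, 28 were higher and 0 lower, 38.4% beside 2.06% of all genes tested, with a median log2 change of 0.58. This list drew on knowledge of early zygotic genes, and its members were picked with earlier results of these data known. The cofactor gene vgll4l (chromosome 8, 31947305 to 31955579) had 11.9, 19.5 and 22.9 FPKM at 3.3 hpf and 0, 0.579 and 0.156 FPKM at 2.5 hpf (log2 change 3.92, SE 0.21, adjusted p = 9.38e-08). The Hairy-type repressor gene her5 stood at 59.3, 61.3 and 68.3 FPKM, against 2.98, 8.57 and 5.24 FPKM (log2 change 3.37, adjusted p = 2.90e-06). The Krüppel-like factor genes klf2b and klf4 rose by log2 changes of 3.32 and 3.07, to means of 19.1 and 63.4 FPKM at 3.3 hpf, and the zinc finger gene blf by 3.79. Iroquois factor irx7 stood at 47.2, 60.7 and 57.4 FPKM at 3.3 hpf, against 3.88, 6.34 and 4.91 FPKM at 2.5 hpf (log2 change 3.23, adjusted p = 9.38e-08). Unlike most risers, irx7 was no higher at later stages, with means of 42.5, 52.1 and 47.9 FPKM at 4.5, 5.3 and 10 hpf.

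The factors known to switch on the genome were already abundant at 2.5 hpf and were not called. Homeobox factor nanog stood at 427, 473 and 436 FPKM at 3.3 hpf, against 343, 367 and 348 FPKM at 2.5 hpf (log2 change 0.34, SE 0.23, adjusted p = 0.811). Its groups do not overlap, and in the fit that included both knockdowns the same change had an adjusted p = 0.00591. The Pou5 factor gene, pou5f1 in the table, had 179, 207 and 168 FPKM against 159, 164 and 156 FPKM (log2 change 0.21, adjusted p = 0.715), and sox19b, a maternal SoxB1 factor, 271, 300.2 and 289 FPKM against 261, 254 and 256 FPKM (log2 change 0.15, adjusted p = 0.849). The groups of pou5f1 and of sox19b do not overlap either, but the test did not call the differences. Other Sox genes were among the risers: sox19a stood at 11.5, 20.5 and 17.01 FPKM at 3.3 hpf, against 0.227, 1.17 and 0.833 FPKM at 2.5 hpf (log2 change 3.32, SE 0.24, adjusted p = 8.79e-07). The SoxB1 gene sox3 had 28.8, 33.7 and 33.3 FPKM against 2.61, 3.66 and 2.60 FPKM (log2 change 3.06, adjusted p = 1.98e-07), and sox11a rose by 2.28. In all, 4 of 18 tested activators and cofactors rose, 22.2% beside 2.06% of all genes tested, and 0 fell. The median log2 change of the 18 was 0.23. Of the risers, sox3 and sox11a also count in the list of first-wave transcription factors. The fourth riser was a merged locus that holds the bromodomain gene brd2a. In the fit that included both knockdowns 6 of 17 tested members of this list were called higher and 0 lower.

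**Figure D2:**
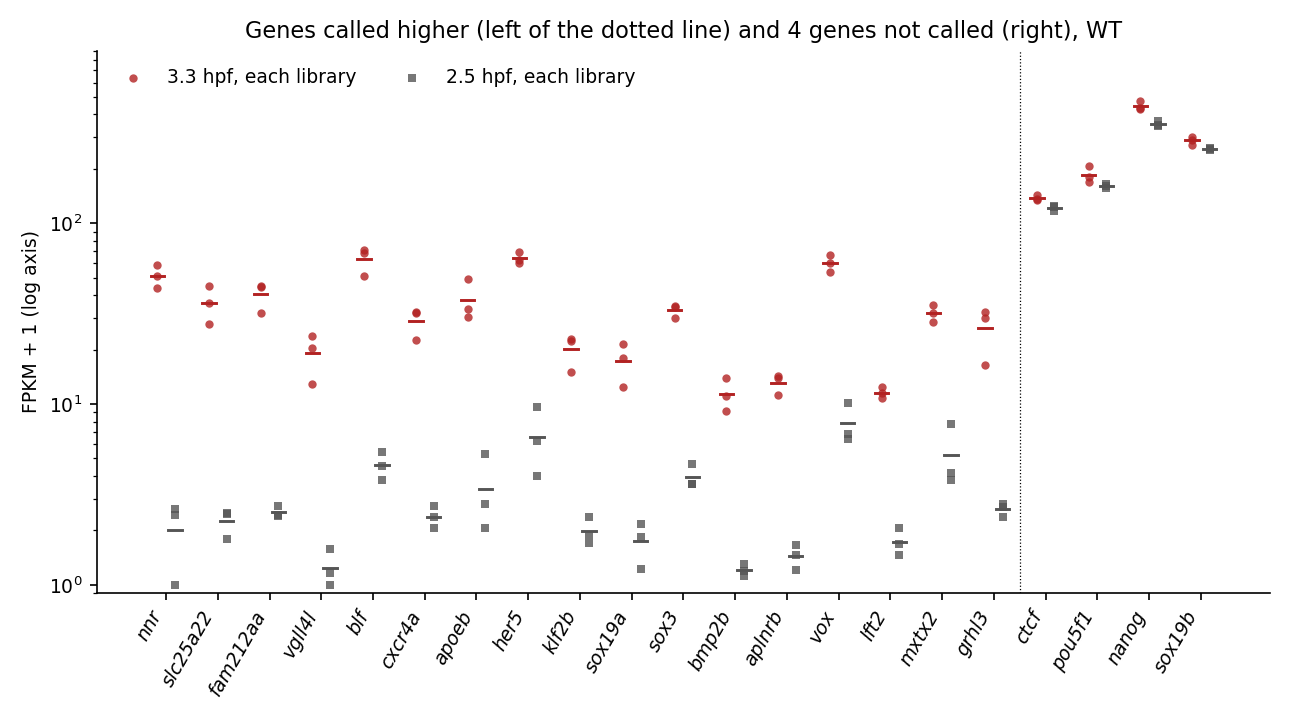
FPKM plus 1 on a log axis in each WT library, with a short bar at the mean, for 17 genes called higher (left of the dotted line) and 4 abundant genes not called (right). For nnr, vgll4l, bmp2b and the other called genes all libraries of 3.3 hpf lie above all libraries of 2.5 hpf, by more than the spread within either stage. For nanog, pou5f1, sox19b and ctcf the stages lie closer together, though their groups do not overlap.

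Genes that pattern the dorsal and ventral sides of the embryo were among the risers on both sides. Of 39 tested members of the BMP pathway, which specifies ventral fate, 7 rose and 0 fell, with a median log2 change of 0.11. The rises were 17.9%, beside 2.06% of all genes tested, of which 0.402% fell. The ligand gene bmp2b (chromosome 20, 46426776 to 46432528) had 8.18, 12.9 and 10.0 FPKM at 3.3 hpf and 0.125, 0.188 and 0.310 FPKM at 2.5 hpf (log2 change 3.22, SE 0.19, adjusted p = 1.98e-07). The ventral repressor gene vox stood at 52.8, 65.9 and 59.6 FPKM, against 5.87, 9.14 and 5.45 FPKM (log2 change 2.97, adjusted p = 1.98e-07), and its relative vent at a mean of 2.93 FPKM against 0.445 FPKM (log2 change 1.43). BMP target id1 averaged 68.4 ± 19.5 FPKM and 9.96 ± 2.56 FPKM (SD, n = 3 each; log2 change 2.65). On the dorsal side, the homeobox gene dharma of the organizer had 5.84, 4.08 and 4.10 FPKM at 3.3 hpf and 0.296, 0.666 and 0.366 FPKM at 2.5 hpf (log2 change 1.97, adjusted p = 2.39e-05). The BMP-like ligand gene admp, which is transcribed in the organizer, averaged 8.53 ± 1.19 FPKM and 0.404 ± 0.327 FPKM (log2 change 2.78).

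The Nodal pathway induces mesoderm and endoderm. Of 22 tested members 6 rose, 0 fell and 16 were not called, the ligand genes ndr1 and ndr2 among these. The risers were 27.3% of those tested, beside 2.06% of all genes tested, of which 0.402% fell. The median log2 change of the 22 was 0.40. The feedback inhibitor gene lft2 had 9.74, 11.5 and 10.5 FPKM at 3.3 hpf, against 0.469, 1.05 and 0.677 FPKM at 2.5 hpf (log2 change 2.75, SE 0.19, adjusted p = 7.50e-07). The notochord homeobox gene flh, noto in RefSeq, rose by 2.34 to a mean of 7.79 FPKM, and the T-box gene tbx16 by 1.62 to a mean of 2.24 FPKM. Ligand gene ndr1 stood at 4.90, 4.86 and 6.72 FPKM at 3.3 hpf, against 2.53, 3.32 and 3.60 FPKM at 2.5 hpf (log2 change 0.64, SE 0.23, adjusted p = 0.268). Its groups do not overlap, but the test did not call the difference. The second ligand gene, ndr2, ranged from 0.305 to 2.13 FPKM and from 0 to 0.401 FPKM, which overlap, and the endoderm factor gene sox32 stayed under 1 FPKM in all 6 libraries.

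Receptor genes of the Wnt and FGF pathways were among the risers, as were a Wnt antagonist and a feedback gene of FGF signalling. In the Wnt list 4 of 36 tested genes rose, 11.1% beside 2.06% of all genes tested, and 0 fell. Among the 4 was the receptor gene fzd8a, with 10.3 ± 2.26 FPKM at 3.3 hpf and 0.716 ± 0.373 FPKM at 2.5 hpf (SD, n = 3 each, log2 change 2.73). Another was the secreted antagonist gene dkk1b, with 3.67 ± 0.587 FPKM and 0.144 ± 0.140 FPKM (SD, n = 3 each, log2 change 2.03). The FGF list had 5 of 30 higher, 16.7%, and 0 lower. The receptor gene fgfr4 stood at 3.75, 6.64 and 5.88 FPKM, against 0.0374, 0.0840 and 0.0694 FPKM (log2 change 2.57, adjusted p = 8.40e-07). The phosphatase gene dusp6, a feedback target of FGF signalling, had 13.6, 14.3 and 15.7 FPKM at 3.3 hpf and 0.526, 1.33 and 0.610 FPKM at 2.5 hpf (log2 change 3.11, adjusted p = 1.19e-06). In the list of retinoic acid and apelin genes 2 of 17 rose and 1 fell, 11.8% and 5.88%, beside 2.06% and 0.402% of all genes tested.

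A receptor and its ligand appeared together for apelin signalling, which guides cells during gastrulation. The receptor gene aplnrb (chromosome 10, 8719517 to 8721599) had 12.9, 13.3 and 10.2 FPKM at 3.3 hpf and 0.660, 0.212 and 0.467 FPKM at 2.5 hpf (log2 change 3.18, SE 0.19, adjusted p = 1.98e-07). The locus si:ch211-42i9.4, which RefSeq lists under apela, the ligand gene also known as toddler, had 8.54, 13.5 and 15.5 FPKM against 0.767, 0.230 and 0.158 FPKM (log2 change 3.28, SE 0.26, adjusted p = 3.01e-06). It was picked after its values were seen. A list of chemokine receptor genes was also added after the values were seen. Of its 7 tested members 3 rose, 42.9% beside 2.06% of all genes tested, and 0 fell. They were cxcr4a, at 21.5, 31.2 and 31.1 FPKM against 1.72, 1.38 and 1.05 FPKM (log2 change 3.59), its duplicate cxcr4b, at means of 38.3 and 3.97 FPKM (log2 change 3.01), and cxcr7b, for a scavenging receptor of the same ligand, at means of 9.29 and 0.168 FPKM (log2 change 3.11). The libraries of 3.3 hpf lay above those of 2.5 hpf for all of them.

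Genes of the extraembryonic layers and of cells other than the blastomeres were tested as marker lists. For the enveloping layer, the outer epithelium of the blastula, 5 of 35 tested rose and 0 fell, 14.3%, with a summed level of 1411 to 1759 FPKM at 3.3 hpf and 1335 to 1778 FPKM at 2.5 hpf. Its transcription factor gene grhl3 had 15.5, 31.3 and 28.7 FPKM at 3.3 hpf, against 1.80, 1.70 and 1.36 FPKM at 2.5 hpf (log2 change 3.27, SE 0.21, adjusted p = 3.38e-07). For the yolk syncytial layer, the nuclei that form beneath the blastula, 2 of 21 rose, 9.52% beside 2.06% of all genes tested, and 0 fell. The homeobox gene mxtx2 stood at 27.5, 34.1 and 31.1 FPKM, against 2.79, 6.74 and 3.17 FPKM (log2 change 2.68, adjusted p = 6.78e-06). The lipid carrier gene apoeb was at 29.4, 47.9 and 32.6 FPKM, against 1.07, 4.32 and 1.81 FPKM (log2 change 3.55, adjusted p = 4.47e-06). In mxtx2 and apoeb library 1 was the highest of 2.5 hpf and still lay below every library of 3.3 hpf. Of 24 germ plasm genes 1 rose, 4.17%, and 0 fell, the riser being cxcr4b. Of 22 tested markers of tissues of later stages 0 were called, beside 2.06% higher and 0.402% lower of all genes tested. All 35 loci of that list summed to 8.56 to 10.5 FPKM at 3.3 hpf and 8.78 to 12.7 FPKM at 2.5 hpf.

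The riser with the highest FPKM was the microRNA locus dre-mir-430a-11 (chromosome 4, 28008949 to 28009079). This rank is one of FPKM, which is scaled to length, and the locus is short. It had 6688, 5846 and 6325 FPKM at 3.3 hpf and 1207, 1332 and 1247 FPKM at 2.5 hpf (log2 change 2.32, SE 0.24, adjusted p = 3.82e-05), with groups far apart. The table lists 53 miR-430 loci, near-identical copies in a cluster, and the other 52 are listed at 0 in all 6 libraries, so reads of the cluster may have been assigned to this locus and its value is uncertain as that of a single copy. The 382 copies of U1 small nuclear RNA, which recognises the 5′ splice site, summed to 874, 896 and 798 FPKM at 3.3 hpf and 171, 282 and 244 FPKM at 2.5 hpf, a ratio of 3.68. Single U1 copies made up 4 of the 20 largest rises among genes with a symbol and at least 5 FPKM at 3.3 hpf, and their calls were lost under 1 to 6 of 17 processing alternatives. With 3 against 3 libraries an exact two-sided permutation test of a summed level cannot give a p under 0.1, which the U1 sum, the miR-430 sum and the histone sum each reached (adjusted p = 0.2 over 6 classes). Histone genes, which also have near-identical copies, summed to 20890 ± 1183 FPKM at 3.3 hpf and 17880 ± 377 FPKM at 2.5 hpf (SD, n = 3 each; ratio 1.17). Small non-coding RNAs as a whole gave a ratio of 1.05 (exact permutation p = 0.9), mitochondrially encoded genes 0.823 over 8 loci (p = 0.5) and genes of cytosolic ribosomal proteins 0.920 (p = 0.5). A list of 4 mitochondrially encoded genes, matched by name, went the other way, all with a change above 0 and a median log2 change of 0.21. In all, 7 mitochondrial loci were tested, and 0 of them were called.

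Not all risers started near 0. For 28 of the 358 the mean at 2.5 hpf was already 10 FPKM or more, 7.8% beside 44.4% of all genes tested. The Myc family gene mych, which is also in the list of oocyte transcripts, stood at 32.8, 57.4 and 44.7 FPKM at 3.3 hpf, against 17.4, 12.1 and 11.02 FPKM at 2.5 hpf (log2 change 1.65, SE 0.18, adjusted p = 6.25e-05). The splicing factor gene srsf5a had 43.1, 60.1 and 47.0 FPKM against 15.5, 15.9 and 15.8 FPKM (log2 change 1.60, adjusted p = 0.00245). It was 1 of 6 risers among 35 tested genes of hnRNP and SR proteins, which bind nascent RNA and steer splicing. This list was added after the values were seen. The 6 were 17.1% of it, beside 2.06% of all genes tested, 0 fell and the median log2 change was 0.24. The count of risers was 3 without library 1 of 3.3 hpf. Another of the 6, hnrnpm, had 26.3, 29.4 and 29.6 FPKM at 3.3 hpf and 16.6, 10.5 and 11.5 FPKM at 2.5 hpf (log2 change 1.11, adjusted p = 0.00663).

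Genes known from other settings as rapid responses to growth signals were also among the risers. The lists share members, so their counts overlap. Gene klf2b is in this list and the first-wave list, vox in the first-wave and BMP lists. Gene klf4 is in the first-wave and enveloping layer lists, and mxtx2 in the Nodal and yolk syncytial layer lists. Of 76 tested early response genes, also a list added later, 15 rose and 0 fell, 19.7%, with a median log2 change of 0.12. They included klf2a, with 8.72, 17.2 and 17.1 FPKM at 3.3 hpf and 0.628, 2.35 and 1.22 FPKM at 2.5 hpf (log2 change 2.68), and the growth-arrest gene gadd45ba, with 6.74, 6.94 and 6.29 FPKM and 0.731, 0.736 and 0.395 FPKM (log2 change 2.25, adjusted p = 8.72e-07). In the cell cycle list 2 of 67 rose and 2 fell, 2.99% each, beside 2.06% and 0.402% of all genes tested. The G1 cyclin gene ccnd1 had 8.49, 22.4 and 14.6 FPKM at 3.3 hpf, against 1.06, 2.22 and 0.623 FPKM at 2.5 hpf (log2 change 2.78, adjusted p = 2.89e-05). The mitotic kinase gene aurkb went the other way, with 107.5, 95.9 and 109 FPKM at 3.3 hpf and 217, 173 and 189 FPKM at 2.5 hpf (log2 change -0.88, SE 0.16, adjusted p = 0.00521). Neither gene's groups overlap.

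Of the 70 falling genes 63 had 10 FPKM or more at 2.5 hpf, beside 44.4% of all genes tested. Their median level was 23.7 FPKM at 3.3 hpf and 38.4 FPKM at 2.5 hpf. The call used the levels at 2.5 hpf, and a gene near 0 there has little room to fall. A high level at 2.5 hpf was therefore favoured by the choice of falling genes. Genes of the mitochondrion were frequent among the falling genes. Of 98 tested nuclear genes for oxidative phosphorylation, 10 fell and 0 rose, 10.2% beside 0.402% of all genes, and 7 of the 98 had a change above 0; the median log2 change was -0.33, and -0.28 to -0.37 under every processing alternative but for a pseudocount of 5, where it was -0.27. This list and that of mitochondrial ribosomal proteins were added after the values were seen. In the second, 4 of 73 fell, 5.48% beside 0.402% of all genes, and 0 rose. The first count was 5 without library 1 of 3.3 hpf, 6 without library 2 of 2.5 hpf and 23 after quantile normalization; the second was 0 without library 1 of 3.3 hpf, 1 or 2 without library 0 of 3.3 hpf or any library of 2.5 hpf, and 7 with these 6 libraries alone or 13 with the 18 libraries. The complex I subunit gene ndufa5 had 11.1, 13.04 and 18.7 FPKM at 3.3 hpf, against 31.8, 29.5 and 33.9 FPKM at 2.5 hpf (log2 change -1.13, SE 0.19, adjusted p = 0.00292). Subunit gene ndufs4 had 5.25, 4.75 and 7.4 FPKM against 14.6, 11.3 and 13.3 FPKM (log2 change -1.06, adjusted p = 0.0012). Both had returned above their level of 2.5 hpf at 10 hpf, with means of 100.0 and 69.8 FPKM.

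Of the 12 largest falls among genes with a symbol and at least 5 FPKM at 2.5 hpf, only ndufa5, ndufs4, mt2 and lamtor3 were called under all 17 processing alternatives; the other 8 lost the call when at least 1 library was left out. The largest of all was that of lyrm2, for a mitochondrial protein of the LYR family, with 2.01, 1.92 and 1.53 FPKM at 3.3 hpf and 6.61, 6.20 and 5.52 FPKM at 2.5 hpf (log2 change -1.34, adjusted p = 0.0293). Its groups do not overlap, but leaving out any 1 of the 6 libraries ended the call, with an adjusted p of 0.0718 to 0.120. The others were trappc1 (log2 change -1.13), trub2 (-1.06), ISCA2 (-1.03), kpna2 (-0.97), ube2t (-0.93), ndufa2 (-0.92) and atp6v1f (-0.92), whose adjusted p reached 0.0596 to 0.229 under at least 1 alternative. The metallothionein gene mt2, for a metal-binding protein, had 224, 196 and 238 FPKM at 3.3 hpf and 435, 438 and 392.2 FPKM at 2.5 hpf (log2 change -0.94, SE 0.15, adjusted p = 0.00189). The lysosomal scaffold gene lamtor3 had 11.1, 11.6 and 12.7 FPKM and 28.0, 23.8 and 26.4 FPKM (log2 change -1.08, adjusted p = 0.00157). Of 39 oocyte transcripts tested, 1 fell and 1 rose, 2.56% each, beside 0.402% and 2.06% of all genes tested. The median log2 change of the 39 was -0.17. The 1 that fell was kpna2, for a nuclear import receptor, and the count of falls was 0 without library 1 of 3.3 hpf, without library 0 of 2.5 hpf or without library 2 of 2.5 hpf, 4 at a pseudocount of 5, 5 after quantile normalization, 8 with the 6 libraries alone and 9 with the 18 libraries. The RNA decay factor gene btg4, a maternal partner of the deadenylase that shortens poly(A) tails, had 299, 297 and 310 FPKM at 3.3 hpf and 421, 417 and 459 FPKM at 2.5 hpf (log2 change -0.51, SE 0.28, adjusted p = 0.655). Its groups do not overlap, and the adjusted p was 0.0114 with the spread estimated from these 6 libraries alone and 0.00409 with the 18 libraries; over the other alternatives it lay between 0.278 and 0.996. Library 1 of 3.3 hpf was the lowest for 71.4% of the falling genes, beside 35.4% of all genes with a value, and only 11 genes were called lower without it; what part it has in the falls was not tested.

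Several groups had few or no calls. None of 70 tested genes of the transcription machinery was called in either direction, with a median log2 change of 0.03. The same held for 96 genes of cytosolic ribosomal proteins and 124 small nucleolar and Cajal body RNAs, with medians of -0.0032 and 0.0048. Of all genes tested 2.06% were higher and 0.402% lower. Single log2 changes ranged from -1.22 to 0.84 among the 96 and from -3.29 to 5.86 among the 124. Of 56 genes of RNA decay 1 rose and 0 fell, and of 26 stress genes 1 rose and 1 fell. Of 38 protein partners of small nuclear RNAs 1 rose and 1 fell, and of 34 p53 targets and Bcl2 family genes 2 rose and 0 fell. In this order the rises were 1.79%, 3.85%, 2.63% and 5.88%, beside 2.06% of all genes tested. The falls were 0%, 3.85%, 2.63% and 0%, beside 0.402%. The morpholino targets were not called in WT: ctcf stood at 133, 142 and 136 FPKM at 3.3 hpf and 122, 115 and 124 FPKM at 2.5 hpf (log2 change 0.18, adjusted p = 0.538), and rad21a at 68.2, 74.3 and 76.5 FPKM and 63.6, 57.9 and 59.6 FPKM (log2 change 0.27, adjusted p = 0.449). The groups of both genes do not overlap, and rad21a was called with the 18 libraries (adjusted p = 0.0398).

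The risers were unevenly spread over the genome. Chromosome 4, whose long arm in zebrafish is rich in repeats and in tandem copies of zinc finger genes, held 115 of the 358, 32.1%, with 5.8% of all genes tested. Of its 1017 tested genes 11.3% rose, against 1.48% of 16393 on other chromosomes or scaffolds. Before 30 megabases the share was 2.83% (13 of 460), and past it 18.3% (102 of 557). What loci with clone names encode cannot be said from the table. Among 160 genes with zinc finger names over the whole genome, 3 rose and 0 fell. The rises were 1.88%, beside 2.06% of all genes tested. One of them, ZSCAN29 on chromosome 21, had 14.2, 14.5 and 14.7 FPKM at 3.3 hpf and 0.197, 0.296 and 0.732 FPKM at 2.5 hpf (log2 change 3.48, adjusted p = 4.27e-08).

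**Figure D3:**
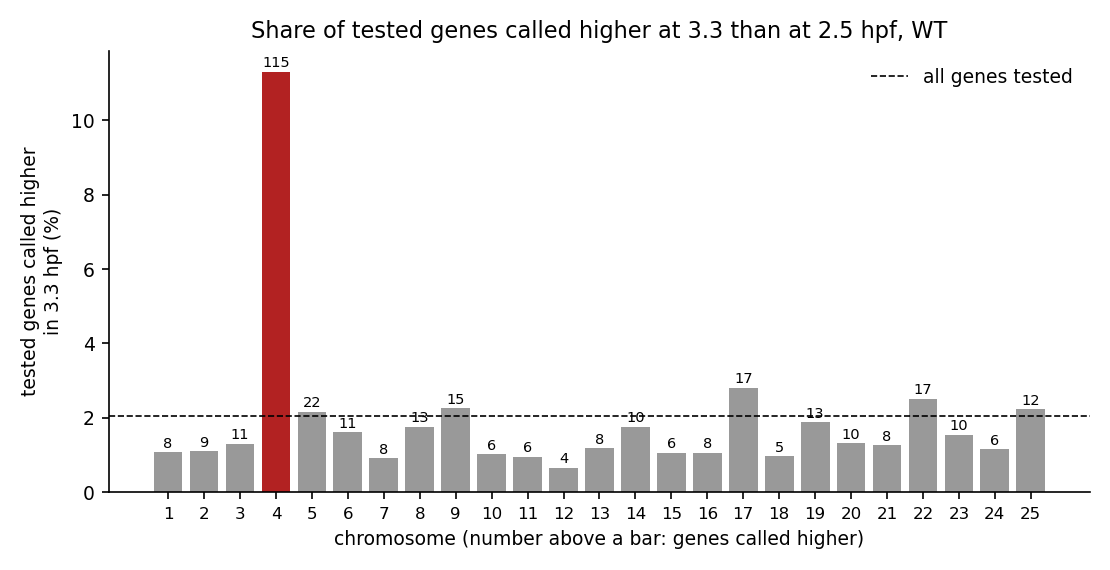
The share of tested genes on each chromosome that were called higher at 3.3 hpf, in percent, with the number of such genes above each bar; the dashed line marks the share over all genes tested, 2.06%. Chromosome 4 reaches 11.3%, and no other chromosome exceeds the 2.81% of chromosome 17.

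Some risers lay near each other. In 9 stretches 3 or more rising genes each started within 50 kilobases of the next, 36 genes in all, and 4 of the stretches with 12 genes lay on chromosome 4. Genes that did not rise could lie between them. How often tested genes lie this close was not computed, so these counts are a description and whether risers cluster was not tested. The one with the most risers lay on chromosome 17, from 50528695 to 50593747, where 9 of 10 tested genes rose. Their FPKM summed to 579, 979 and 730.0 at 3.3 hpf and 44.4, 116 and 86.2 at 2.5 hpf, and in later WT embryos to means of 2082 at 4.5 hpf, 1188 at 5.3 hpf and 4.65 at 10 hpf. The member with the highest level, zgc:113886, had 171, 305 and 206 FPKM at 3.3 hpf and 12.3, 30.7 and 23.8 FPKM at 2.5 hpf (log2 change 3.34, SE 0.39, adjusted p = 9.18e-05). A second stretch, on chromosome 25 from 36111158 to 36243471, held 6 risers among 35 tested genes. Of the 35, 11 carry histone names, and none of these was among the 6 risers. The summed level of the 6 was 195, 255 and 218 FPKM at 3.3 hpf and 91.6, 104 and 75.6 FPKM at 2.5 hpf. Neighbouring copies share reads, so the separate values within a stretch are uncertain.

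The levels at 3.3 hpf were an early point of a longer climb. In later WT embryos 343 of the 358 risers had a higher mean at 4.5 hpf than at 3.3 hpf, beside 9130 of all 17410 genes tested. All FPKM of a library summed to 745451 to 816256 at 3.3 hpf and to 1111850 to 1207930 at 4.5 hpf. The share of the risers in it averaged 1.62% and 3.99%. The risers' highest mean fell at 4.5 hpf for 141, at 5.3 hpf for 155 and at 10 hpf for 50, beside 1683, 3463 and 6779 of all genes tested. Only 12 risers were highest at 3.3 hpf, beside 2181 of all genes tested. Of the 12, 7 lay on chromosome 4, and the 12 included irx7 and dre-mir-430a-11. Risers on chromosome 4 had medians of 0.472, 4.36, 25.8, 22.0 and 2.04 FPKM from 2.5 to 10 hpf in stage order, and those on other chromosomes 0.621, 6.66, 53.7, 57.5 and 16.6 FPKM. At 10 hpf 60 of the 115 on chromosome 4 were below 50% of their level of 3.3 hpf, 52.2%, and 55 of the other 243, 22.6%, beside 26.6% of all genes tested. The genes that fell had medians of 38.4, 23.7, 13.4, 17.9 and 40.9 FPKM over the same stages. Of the 70, 34 were highest at 10 hpf, 48.6% beside 38.9% of all genes tested. Another 34 were highest at 2.5 hpf, beside 3304 of all 17410 genes tested, an order that a call as lower at 3.3 hpf favours. All 5 stages shared 1 estimate of spread in the test, so these later levels are given as a description.

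**Figure D4:**
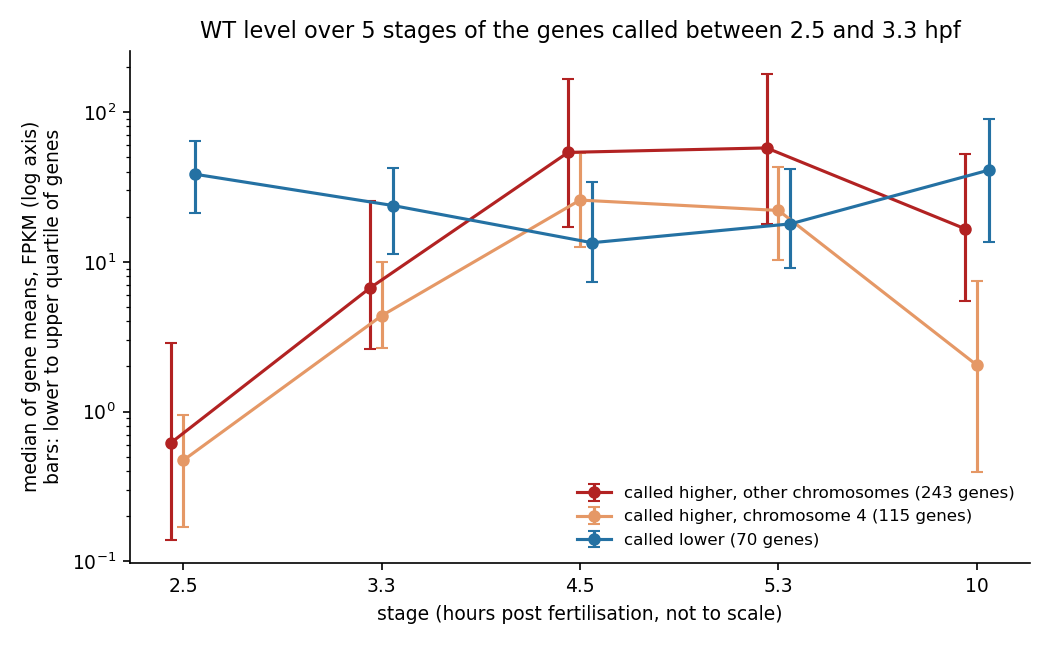
Median WT level in FPKM on a log axis at the 5 stages, with bars from the lower to the upper quartile of genes, for the 243 risers on other chromosomes, the 115 on chromosome 4 and the 70 falling genes. The median of the chromosome 4 group climbs until 4.5 hpf and drops to 2.04 FPKM at 10 hpf. That of the other risers climbs until 5.3 hpf, to 57.5 FPKM, and drops to 16.6 FPKM at 10 hpf. The falling genes have their lowest median, 13.4 FPKM, at 4.5 hpf.

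Embryos of the same stages that had received a morpholino give the comparison again in libraries that the WT contrast did not use. In Rad21 MO embryos 544 of 14628 genes tested, 3.72%, were higher at 3.3 than at 2.5 hpf and 127, 0.868%, were lower. In CTCF MO embryos 529, 3.62%, were higher and 181, 1.24%, lower. Of the 358 WT risers 354 were tested there; 336 were called higher with the rad21 morpholino and 333 with the ctcf morpholino, 323 of them in both, 13 in Rad21 MO alone, 10 in CTCF MO alone and 8 in neither. The change was above 0 for all 354 in Rad21 MO embryos, with a median log2 change of 2.27, and for 353 in CTCF MO embryos, with a median of 2.23, against 1.90 for the same genes in WT. Gene blf, for instance, had means of 94.0 FPKM at 3.3 hpf and 5.40 FPKM at 2.5 hpf in Rad21 MO embryos (log2 change 3.89), and 61.5 and 2.73 FPKM in CTCF MO embryos (log2 change 4.13). Of the 70 falling genes 23 were called lower in Rad21 MO embryos, with a median log2 change of -0.42 over the 70. In CTCF MO embryos 24 were called lower, with a median of -0.40, against -0.68 in WT. Risers and falling genes were picked by their change in the WT libraries, which can overstate the size of the WT medians. The medians were not compared by a test.

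Whether the step from 2.5 to 3.3 hpf differed from WT was tested gene by gene. No gene of 14628 passed for Rad21 MO minus WT or for CTCF MO minus WT, 0% each by limma. In the same limma tests 421 and 645 genes had an unadjusted p under 0.05, and the smallest adjusted p-values were 0.112 and 0.357. As a share of the genes tested, these counts lie below 0.05. A test that is too strict for these data can also give such a share. With 3 libraries a group, the lack of calls therefore does not show that the steps were the same. Both differences use the same WT libraries. Across the WT risers the median difference in log2 change was 0.31 for Rad21 MO and 0.41 for CTCF MO, both above WT. Without a filter on low values 4 and 6 genes passed, and 20 passed for CTCF MO without library 1 of CTCF MO at 3.3 hpf. The summed FPKM of the WT risers in Rad21 MO embryos was 19900, 13650 and 15760 at 3.3 hpf and 4323, 4012 and 2887 at 2.5 hpf. In CTCF MO embryos it was 12050, 14710 and 15890 and 2453, 2346 and 2034, and in WT embryos at 4.5 hpf 44530 to 49660. At 3.3 and 2.5 hpf dre-mir-430a-11 alone gave means of 7022 and 2096 FPKM of this in Rad21 MO embryos. Its means were 6358 and 985 FPKM in CTCF MO embryos, and 4025 FPKM in WT embryos at 4.5 hpf. The labels of 2 Rad21 MO libraries conflict: a library with 3.3 hpf in its title has an age of 4.5 hpf, and a library with 4.5 hpf in its title an age of 3.3 hpf. Columns could not be matched to them, and each column kept the stage it names. Leaving out any 1 library of Rad21 MO at 3.3 hpf gave 476 to 626 calls in that course, against 671 with all.

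**Figure D5:**
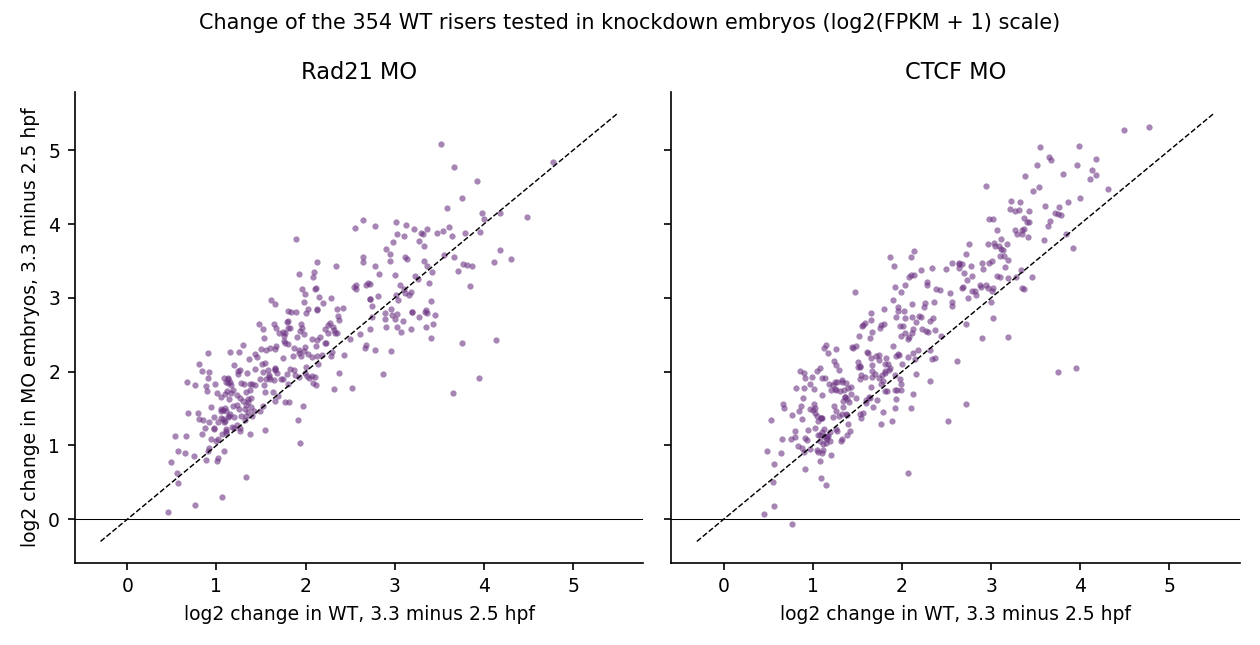
Each point is 1 of the 354 WT risers tested in knockdown embryos; the horizontal axis is its log2 change in WT and the vertical axis that in Rad21 MO (left) or CTCF MO embryos (right), each 3.3 minus 2.5 hpf on the log2(FPKM + 1) scale, and the dashed line marks equal changes. All points but 1 in CTCF MO lie above 0, and the medians are 2.27 in Rad21 MO, 2.23 in CTCF MO and 1.90 in WT.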

How the data were processed

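Whole embryos were measured by RNA sequencing, and the table deposited by the authors gives FPKM per gene and library. Per the submitters' processing notes, the tools included TopHat2 2.0.9, Cufflinks 2.2.0 and Cuffdiff, and the genome build was Zv9 (danRer7). Any scaling between libraries, and whether coordinates count from 0 or 1, is not given in the sources used here. FPKM depends on annotated length and on what else a library holds, so other values drop when abundant RNAs gain share. Whole reads could not be recovered: the commonest step was shared by 25.8% to 31.9% of low genes, so no count test was run, the depth of single values is unknown, and a 0 may be a failed estimate. No 2 of the 27 columns used were identical.

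Groups came from the treatment and stage that the column names give. The test was limma 3.58.1 (R 4.3.3) on log2(FPKM + 1): two-sided moderated statistics from a linear model, with the prior variance following mean expression, p-values adjusted by Benjamini-Hochberg over all genes and called under 0.05. The WT contrast was fitted on the 15 WT libraries, with 10 residual degrees of freedom, and the knockdown contrasts and differences on the 18 libraries of 2.5 and 3.3 hpf. Genes needed 1 FPKM or more in 3 or more libraries of a fit. The procedure was tested on simulated data. Summed levels were compared by exact permutation tests with scipy 1.17.1, and tables handled with pandas 2.3.3 and Python 3.11.15; plots were drawn with matplotlib 3.10.9. Gene names outside the table come from RefSeq (GRCz12tu), used for names only.

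The comparison, the gene lists and the named genes were chosen with earlier results of these data known. Genes eligible to be named are the 20 largest rises and 12 largest falls that were called, did not overlap, had a mean of 5 FPKM or more at either stage and bear a symbol; of each list up to 8 called members with the smallest adjusted p and up to 4 others with the highest level; and a fixed set of activators, signalling genes and the morpholino targets. The lists of oxidative phosphorylation, mitochondrial ribosomal proteins, chemokine receptors, early response genes and hnRNP and SR proteins, and the genes si:ch211-42i9.4, cxcr7b, klf2a, srsf5a, hnrnpm and zgc:113886, were added after values were seen. Of 49 other eligible rises the 25 that are named all held their call under every alternative, a choice made after values were seen, while 17 of the 49 lost it under at least 1. A single eligible gene is not reported here. Alternatives changed the pseudocount, filter, scaling, fitted samples, variance model and replicate block, and left out each library in turn.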

Additional observations from a re-analysis of the deposited data

How the results depend on the processing

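Both counts moved with the processing, the falls more under left-out libraries. Against 358 genes higher and 70 lower, a pseudocount of 0.1 gave 558 higher, a pseudocount of 5 gave 241, rescaling without abundant RNA classes 449 and the 18 libraries 453, and leaving out a library of 3.3 or 2.5 hpf in turn gave 296 to 345 higher and 11 to 53 lower. The lower count was 23 without library 0 of 2.5 hpf, 28 without library 2 of 2.5 hpf, 39 without library 0 of 3.3 hpf and 11 without library 1 of 3.3 hpf. Quantile normalization gave 150 lower, the 6 libraries alone 152 and the 18 libraries with both knockdowns 347, which put the share of rises among the calls at 71.4%, 67.2% and 56.6%, and a pseudocount of 5 put it at 71.1%, against 83.6%; the cause was not tested. Of the 358 risers 239 to 354 were called higher under each alternative. For the difference from WT in the step to 3.3 hpf, no filter on low values gave 4 genes for Rad21 MO and 6 for CTCF MO, and leaving out a library in turn gave 0 to 2 and 0 to 20. Column numbers of the stages correlated at 0.0851, 0.197 and 0.165 in their deviations, and every library did so best with its own number, a hint from the data and not the design; the samples were therefore not treated as paired, and a replicate block by number gave 360 higher and 58 lower in WT, 629 calls in Rad21 MO, 659 in CTCF MO, and 0 differences from WT for either. Small numbers of fragments limit the genes near 1 FPKM, whose change shrinks with a larger pseudocount.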
